A study of Mus musculus with 14 samples.

Results

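The 7 genes examined in the liver of Apoe-deficient mice control the supply of cholesterol: Srebf1 and Srebf2, which encode the sterol regulatory element-binding proteins (SREBPs), Scap, Insig1 and Insig2, which hold SREBPs back or escort them, Mylip, whose product marks lipoprotein receptors for destruction, and Stard4, a carrier of cholesterol. They were found by their symbols in the deposited gene table, which holds 17552 genes, and all 7 had a row. All 14 libraries came from the liver of male C57BL/6 mice lacking apolipoprotein E, fed a Western diet, and the libraries of the erythrodiol group (n = 7) differed from those of the control group (n = 7) in that the diet was enriched to give a dose of 10 mg/kg of erythrodiol, a pentacyclic triterpene of the olive. The labels give an age of 8 weeks and 8 weeks of diet, and the study's methods give another duration. Each library was made from RNA pooled from a few animals, and loss of apolipoprotein E raises plasma cholesterol and favours hepatic steatosis, so neither group stands for a healthy liver.

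SREBPs are transcription factors made as precursors in the membrane of the endoplasmic reticulum, where SCAP binds them. When the membrane holds enough sterol, SCAP is kept in place by an INSIG protein. When sterol is low, SCAP carries the precursor to the Golgi, where the proteases encoded by Mbtps1 and Mbtps2 release the active factor. The product of Srebf2 mainly drives cholesterol synthesis and uptake, and the main hepatic product of Srebf1 drives fatty acid synthesis. Insig1 is itself a target of the SREBPs, while Insig2 in the mouse liver is known for transcripts from more than 1 promoter, one of which insulin lowers. Mylip and Srebf1 are also known as targets of the liver X receptors (LXR), which sense oxysterols, and Stard4 as a target of the product of Srebf2.

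Each gene came with 1 expected count for a group, the sum of that group's 7 libraries. Over all genes these sums reached 122889032 for the controls and 124686047 for erythrodiol. No gene therefore has a replicate value, no test of a gene was possible, and each difference given here is between pooled libraries and not between conditions. The 95% intervals of levels and folds, exact Poisson and exact Clopper-Pearson, cover counting error only. Ratios were scaled by these totals, a scale on which the median gene was 1.12-fold higher with erythrodiol (log2 ratio 0.16 over the 13291 genes whose sums held at least 100 counts between them). Since the ratio also differed with gene length, from a median log2 of -0.18 in the shortest of 10 length classes to 0.33 in the longest, each ratio was given a second time relative to the median of the 500 genes nearest in length.

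Among the 7 genes, Insig2 stood lower with erythrodiol and Stard4, Srebf2, Scap and Insig1 stood higher, on the scale of column totals. Insig2 was 1.54-fold lower, Stard4 1.56-fold higher, Srebf2 1.38-fold, Scap 1.31-fold and Insig1 1.22-fold higher. Srebf1 and Mylip lay close to the median gene, at 1.10-fold and 1.11-fold, and both change sign relative to genes of like length (log2 -0.11 and -0.05). So 4 of the 7 were at least 1.2-fold higher and 1 was at least that much lower, where 33.7% and 11.4% of all genes were. Relative to genes of like length, only Stard4 was at least 1.2-fold higher and only Insig2 that much lower, where 9.51% and 17.6% of all genes were. The median log2 ratio of the 7 was 0.29 by column totals and 0.14 relative to genes of like length, beside 0.16 and about 0 over all genes. At 1.5-fold by column totals, Stard4 was among the 2.55% of genes that were higher, and Insig2 among the 3.14% that were lower. Relative to like length, Insig2 was still among the 3.51% that were at least 1.5-fold lower, and none of the 7 was among the 1.02% that were higher.

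**Figure D1:**
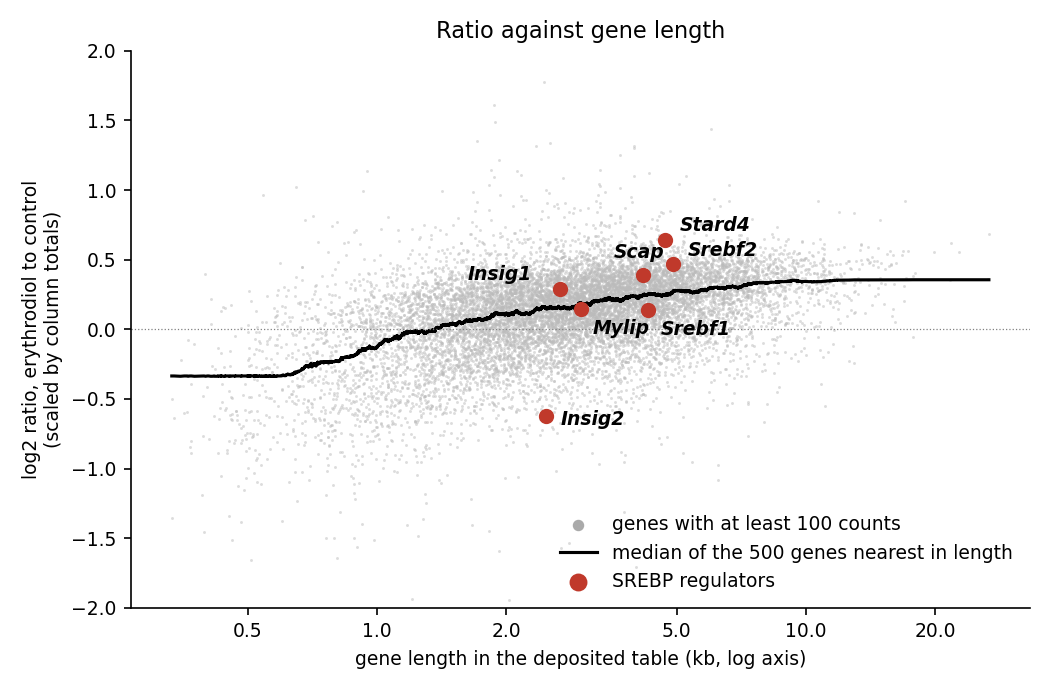
Log2 ratio (erythrodiol over control, by column totals) against gene length in kilobases on a log axis, for genes at the minimum count (grey, ratios beyond 2 on the log2 scale not drawn), the median of the 500 genes nearest in length (black line) and the 7 SREBP regulators (red). Stard4 at 0.64 stands highest above the line and Insig2 at -0.62 farthest below it, while Mylip and Srebf1 lie just under it.

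Levels per length, in counts per 1000000 of the group's total (CPM) and per kilobase, ordered the 7 genes from Insig2 down to Mylip in the control group. Insig2 stood at 92.0 in control libraries, Srebf1 at 48.1, Insig1 at 46.0, Scap at 21.8, Stard4 at 11.6, Srebf2 at 6.96 and Mylip at 4.98. Each neighbouring pair in that order differed by more than the counting intervals of its levels, the closest being Srebf1 (47.5 to 48.7) and Insig1 (45.2 to 46.7). With erythrodiol the order of Srebf1 and Insig1 was turned, with Insig2 at 59.7, Insig1 at 56.2 and Srebf1 at 53.0, followed by Scap at 28.5, Stard4 at 18.2, Srebf2 at 9.63 and Mylip at 5.51. The span between the highest and the second gene, wide in the control sums, was thus narrow in the erythrodiol sums. By the geometric mean of the control and erythrodiol levels, Insig2 lay above 93.3% of the 13291 genes and Mylip above 51.1%.

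**Figure D2:**
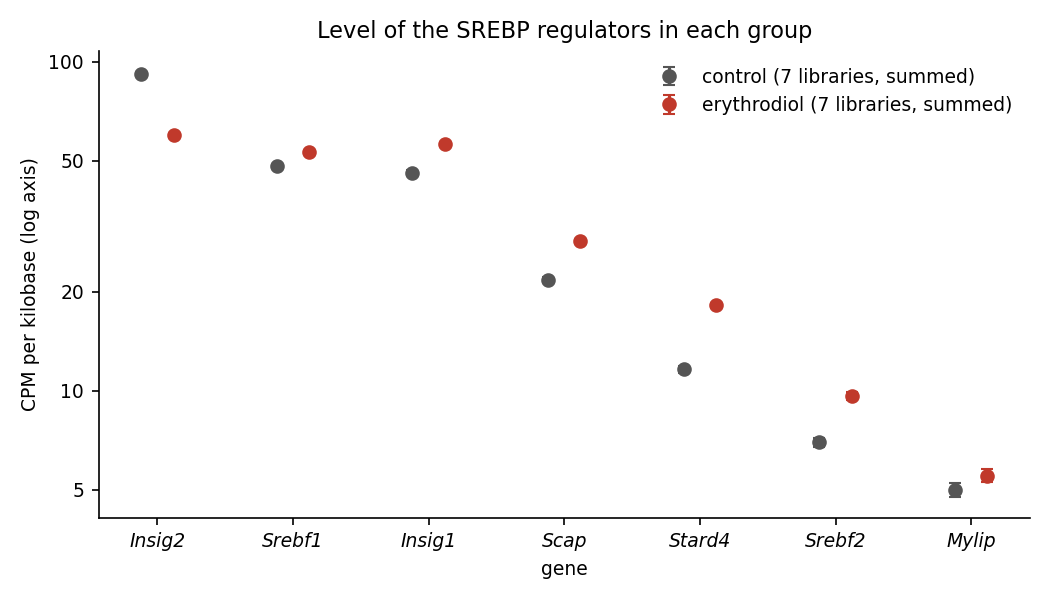
Level of each SREBP regulator in CPM per kilobase, on a log axis, in the summed control libraries (grey) and the summed erythrodiol libraries (red). Points are the 2 group values and bars their 95% Poisson intervals, which are mostly smaller than the points. Insig2 lies at 92.0 and 59.7, while the red point is the higher for the other 6 genes on this scale.

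Insig2 (gene ID 72999, chr1:121304353-121332662 of GRCm38, minus strand) encodes an endoplasmic reticulum protein that holds SCAP in place when sterols are plentiful. It had 27992 counts in the control sum and 18422 with erythrodiol. This is 1.54-fold lower (95% counting interval 1.51 to 1.57), a log2 ratio of -0.62. Relative to genes of like length it was 1.71-fold lower (log2 -0.77), and of the 500 genes nearest in length, between 2398 and 2554 bases, only 4 had a lower ratio. GENCODE lists 14 transcripts of Insig2, 11 of them coding, and the deposited count does not separate them.

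RefSeq promoter windows of GRCm38.p6, from 250 bases before to 50 bases after a start, were read for the pair of INSIG genes, one lower and one higher with erythrodiol by column totals, to show that the 3 starts of Insig2 and the start of Insig1 differ in sequence. Each is printed 5′ to 3′ on the gene's strand, with 4 short motifs in capitals where they occur on either strand: CCAAT (or ATTGG), the GC box GGGCGG (or CCGCCC), the E-box CACGTG and ATCACCCCA (or TGGGGTGAT), 9 letters of a sterol regulatory element. The windows of Insig2 are chr1:121332540-121332839, chr1:121327975-121328274 and chr1:121327629-121327928, and that of Insig1 is chr5:28071162-28071461.
Insig2 upstream start: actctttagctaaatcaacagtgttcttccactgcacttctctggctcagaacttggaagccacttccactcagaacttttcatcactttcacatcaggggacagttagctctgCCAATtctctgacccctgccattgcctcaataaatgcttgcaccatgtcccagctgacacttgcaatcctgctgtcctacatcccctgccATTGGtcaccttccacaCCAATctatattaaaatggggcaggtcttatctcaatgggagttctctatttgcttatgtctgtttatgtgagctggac
Insig2 middle start: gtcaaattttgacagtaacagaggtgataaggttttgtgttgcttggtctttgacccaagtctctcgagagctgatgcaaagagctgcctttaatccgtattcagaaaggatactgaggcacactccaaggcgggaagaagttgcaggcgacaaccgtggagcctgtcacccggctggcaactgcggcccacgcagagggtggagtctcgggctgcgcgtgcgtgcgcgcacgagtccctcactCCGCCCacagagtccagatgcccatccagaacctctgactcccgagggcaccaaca
Insig2 downstream start: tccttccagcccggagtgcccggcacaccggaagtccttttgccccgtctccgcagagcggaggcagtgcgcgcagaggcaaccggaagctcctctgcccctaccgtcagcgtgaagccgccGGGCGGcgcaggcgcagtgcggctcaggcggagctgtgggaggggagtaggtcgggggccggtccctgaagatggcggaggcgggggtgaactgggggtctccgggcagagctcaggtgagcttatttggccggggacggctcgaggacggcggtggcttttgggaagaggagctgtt
Insig1 start: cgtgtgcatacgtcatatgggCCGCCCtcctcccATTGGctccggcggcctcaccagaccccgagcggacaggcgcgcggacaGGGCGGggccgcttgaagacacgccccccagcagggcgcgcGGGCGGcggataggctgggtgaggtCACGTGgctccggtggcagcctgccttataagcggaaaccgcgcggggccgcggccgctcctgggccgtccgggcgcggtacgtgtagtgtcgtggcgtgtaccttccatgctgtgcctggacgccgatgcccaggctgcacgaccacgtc
The upstream window of Insig2 has 46.0% G and C and 3 CCAAT letters, 136, 46 and 29 bases before the start, and no GC box. The middle and downstream windows have 57.0% and 69.3% G and C and 1 GC box each. The Insig1 window has 71.7% G and C, 3 GC boxes, 1 CCAAT and 1 E-box, the last 101 bases before the start. Over the 32851 mouse windows, the median was 52.7% G and C, and 37.4% held CCAAT, 35.7% the GC box and 7.15% the E-box. A match of letters is a description and not a bound site, and which of these starts was used in the livers was not measured.

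Insig1 (gene ID 231070, chr5:28071412-28078662, plus strand) does the same work as Insig2 and is itself switched on by SREBPs. It had 15060 counts in the control sum and 18695 with erythrodiol, 1.22-fold higher (1.197 to 1.25). Against genes of like length it was log2 0.14, under 1.2-fold, and 139 of the 500 nearest genes had a higher ratio. Set against each other, the level of Insig2 was 2.00 times that of Insig1 in control libraries and 1.06 times that of Insig1 in erythrodiol libraries. This relation uses no scaling between groups and joins genes of nearly the same length (2476 and 2667 bases), and it was 1.89-fold lower with erythrodiol (1.83 to 1.94, counting error only). A long non-coding gene, Gm35223, spans the whole of Insig1 in the annotation and is not in the gene table.

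Scap (gene ID 235623, chr9:110333288-110384949, plus strand) encodes the escort that senses cholesterol and carries SREBPs to the Golgi. It had 11166 counts in the control sum and 14856 with erythrodiol, 1.31-fold higher (1.28 to 1.34). Relative to genes of like length it was log2 0.15, with 91 of 500 nearest genes higher. The level of Scap was 0.237 times that of Insig2 in control libraries and 0.478 times that of Insig2 with erythrodiol, while it was 0.474 and 0.508 times that of Insig1. Its relation to Insig2 was thus 2.02-fold higher with erythrodiol and its relation to Insig1 was 1.07-fold higher. Scap, with 4176 bases, is longer than Insig2 (2476) and Insig1 (2667). The median log2 ratio of genes of like length was 0.25 for Scap and 0.15 for each INSIG gene. The part of length in these relations was not tested. These relations between genes were chosen after the values were seen.

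Srebf2 (gene ID 20788, chr15:82147269-82205379, plus strand), whose product drives cholesterol synthesis, had 4186 counts in the control sum and 5880 with erythrodiol. This is 1.38-fold higher (1.33 to 1.44), and log2 0.20 relative to genes of like length, where 34 of the 500 nearest genes were higher. Its promoter window, chr15:82147019-82147318, is shown because it alone among the 11 windows searched holds the 9 letters of the sterol regulatory element. Of all windows, 0.28% hold these letters (92 of 32851).
Srebf2 start: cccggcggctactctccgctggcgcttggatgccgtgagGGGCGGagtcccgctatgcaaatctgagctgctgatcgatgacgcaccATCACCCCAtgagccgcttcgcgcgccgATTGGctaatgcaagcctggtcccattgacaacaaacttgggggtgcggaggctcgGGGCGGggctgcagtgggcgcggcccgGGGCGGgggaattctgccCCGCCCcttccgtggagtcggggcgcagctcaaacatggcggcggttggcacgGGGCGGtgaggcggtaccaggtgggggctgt
The 9 letters begin 163 bases before the start on the gene's strand, followed by 1 CCAAT on the other strand 135 bases before it. The window also holds 5 GC boxes and 68.7% G and C. The 11 windows belong to 6 of the 7 genes, and no window of Stard4 was searched or printed. Mir33, a microRNA gene at chr15:82198122-82198190, lies within Srebf2 and is not in the gene table.

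Srebf1 (gene ID 20787, chr11:60199084-60224186, minus strand), whose main liver product drives fatty acid synthesis, had 25288 counts in the control sum and 28291 with erythrodiol. It was 1.10-fold higher by column totals (1.08 to 1.12), less than the 1.12-fold of the median gene, and lower by log2 0.11 relative to genes of like length, where 352 of the 500 nearest genes had a higher ratio. The sign of its difference therefore rests on the scaling. Its level was 6.91 times that of Srebf2 in control libraries and 5.50 times that of Srebf2 with erythrodiol, a relation 1.26-fold lower (1.203 to 1.31). Rai1, on the other strand, overlaps the end of Srebf1 by 114 bases and had 1746 counts in the control sum and 2133 with erythrodiol. Reads in that overlap could not be told apart if the counting used no strand.

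Srebf1 was the only one of the 7 with a transcript in the authors' deposited annotation of new coding transcripts, which holds at least 1 for 35.8% of the genes at the minimum count (4763). The new transcript has 19 exons and 4301 bases, and all of its 18 junctions are in GENCODE. What differs from GENCODE is their combination and both ends of the transcript. It begins at chr11:60222686, which is 2082 bases upstream of the start of a GENCODE transcript of 19 exons, and shares 16 exons with it. The new transcript ends at chr11:60199084, as the gene does in RefSeq, where that GENCODE transcript ends at chr11:60199089. Its exon 4 has 123 bases, as in a GENCODE transcript that starts within exon 2, while the exon at that place has 138 bases in the GENCODE transcript of 19 exons and in one that starts in the first intron. The first exon is joined to the second over an intron of 15265 bases. The annotation was made over all libraries and has no value per group, so nothing about erythrodiol follows from it. Of the 16 differential splicing events deposited, 0 lay in the 7 genes.

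**Figure D3:**
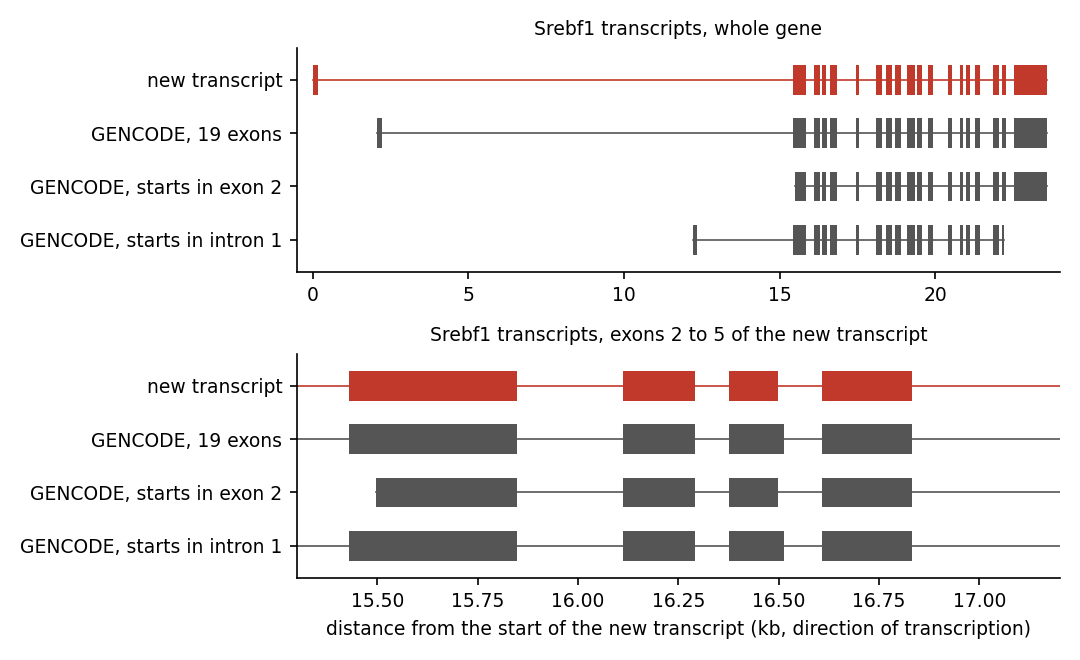
Exons (boxes) and introns (lines) of the new Srebf1 transcript (red) and of 3 GENCODE transcripts (grey), by distance in kilobases from the start of the new transcript along the direction of transcription. The upper panel shows the whole gene, with the new first exon 2082 bases before that of the GENCODE transcript of 19 exons, and the lower panel exons 2 to 5 of the new transcript, where its exon 4 is as short as in the transcript that starts in exon 2.

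Stard4 (gene ID 170459, chr18:33199138-33213862, minus strand) encodes a soluble protein that moves cholesterol between membranes. It had 6710 counts in the control sum and 10638 with erythrodiol. This is 1.56-fold higher (1.52 to 1.61), and 1.32-fold higher relative to genes of like length (log2 0.40), where 7 of the 500 nearest genes had a higher ratio. The gene nearest to it in level over both groups was Cyp51, an enzyme of cholesterol synthesis, at 11.6 in control and 17.9 with erythrodiol (CPM per kilobase). Likeness was the distance between log2 levels over 2 group values, so many genes could lie as near by their level alone.

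Mylip (gene ID 218203, chr13:45389742-45411940, plus strand) encodes a ubiquitin ligase, also called IDOL, that sends lipoprotein receptors to the lysosome. It had 1827 counts in the control sum and 2049 with erythrodiol, 1.11-fold higher (1.04 to 1.18) by column totals and log2 -0.05 relative to genes of like length. Of the 500 genes nearest in length, 290 had a higher ratio and 210 a lower one. Its level was the lowest of the 7 genes in both group sums.

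Genes known to act on lipoprotein receptors lay on both sides of their length neighbours. Of the 25 genes listed, 24 reached the minimum count (Lrp8 had 41 and 40 counts), 12 of them were at least 1.2-fold higher and 1 was lower by column totals, and 6 were higher and 3 lower relative to genes of like length. The shares of all genes were 33.7% and 11.4% by column totals, and 9.51% and 17.6% relative to like length. Its median log2 ratio was 0.27 by column totals and -0.016 against genes of like length. The highest was Usp2, a deubiquitinase that stabilises the product of Mylip, with 1289 counts in the control sum and 2693 with erythrodiol (2.06-fold higher, log2 0.84 relative to like length). Ube2d1, a ubiquitin-conjugating enzyme, and Zfp36 and Khsrp, which bind messenger RNA, were also among those that were higher. Ube2d1 was log2 0.39 relative to like length, Zfp36 0.38 and Khsrp 0.28. The 3 that were lower were Vldlr, a lipoprotein receptor and a target of the product of Mylip (713 and 610 counts, log2 -0.58 relative to like length), Commd1, which returns receptors from endosomes (4130 and 2507 counts, log2 -0.52), and Vps35, of the retromer (16244 and 14041 counts, log2 -0.42).

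The 2 proteases that release SREBPs differed little from their length neighbours. Mbtps1, the site-1 protease, had 7449 counts in the control sum and 9688 with erythrodiol (1.28-fold higher, log2 0.11 relative to like length), and Mbtps2, the site-2 protease, had 1114 and 1164 (1.03-fold, log2 -0.21). Of 15 genes for the turnover of INSIG, SCAP, the SREBP precursors and related membrane proteins, 5 were at least 1.2-fold higher and 0 lower by column totals, with a median log2 of 0.20. The higher share is near the 33.7% of all genes that were higher on this scale, where 11.4% were lower. Relative to like length 3 were higher and 0 lower, with a median log2 of 0.04, where 9.51% and 17.6% of all genes were. These were Syvn1, a ubiquitin ligase of the endoplasmic reticulum, with 8878 and 15118 counts (1.68-fold higher, log2 0.55 relative to like length), Paqr3, which holds SCAP at the Golgi (log2 0.32), and Aup1, which recruits ubiquitin-conjugating enzymes (log2 0.31). The lowest was Rnf139, a ligase of the same membrane, at log2 -0.21.

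The enzymes of cholesterol synthesis, targets of the SREBPs, mostly lay above the length trend. Of 21 cholesterol synthesis enzymes, 18 were at least 1.2-fold higher by column totals and 16 relative to like length. On either scale 0 were lower, and the median log2 ratios were 0.51 and 0.36. Of all genes, 33.7% were that much higher and 11.4% lower by column totals, and 9.51% higher and 17.6% lower relative to like length. Sqle, which oxidises squalene, had 1527 counts in the control sum and 2902 with erythrodiol (1.87-fold higher, log2 0.75 relative to like length), and Idi1, which isomerises isopentenyl diphosphate, 3045 and 5637 (1.82-fold, log2 0.71). Nsdhl, at log2 0.68 relative to like length, Mvd at 0.56, Fdps at 0.51, Dhcr7 at 0.50 and Msmo1 at 0.45, enzymes from the mevalonate steps to the last sterol, followed. Tm7sf2 and Cyp51 were at 0.38, Sc5d at 0.36, Lss, Hmgcs1 and Acat2 between 0.31 and 0.34, Mvk at 0.31 and Pmvk at 0.28. The lowest, Ggps1, which makes geranylgeranyl diphosphate outside the sterol branch, was at log2 -0.12.

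The enzymes of fatty acid synthesis had lower medians. By column totals the 15 genes had a median log2 of 0.43. On that scale 10 were at least 1.2-fold higher and 0 lower, where 33.7% and 11.4% of all genes were. Relative to like length the median was 0.18. On this scale 4 were higher and 0 lower, where 9.51% and 17.6% of all genes were. The desaturases Fads2 (30137 and 51362 counts, log2 0.71 relative to like length) and Fads1 (36633 and 61768 counts, log2 0.51) led them, followed by Acacb, the mitochondrial acetyl-CoA carboxylase, at 0.40 and Me1, the malic enzyme, at 0.27. The lowest, Pnpla3, had 357 and 371 counts, log2 -0.21. Of 12 genes for LXR and its targets, 2 were at least 1.2-fold higher and 1 lower by column totals, with a median log2 of 0.07 that turned to -0.13 relative to like length, where 1 was higher and 3 lower. Of all genes, 33.7% were higher and 11.4% lower by column totals, and 9.51% higher and 17.6% lower relative to like length. The one higher relative to like length was Cyp7a1, the rate-limiting enzyme of bile acid synthesis, with 11875 and 28636 counts (2.38-fold higher, 2.33 to 2.43). The 3 lower relative to like length were Smpdl3a, a phosphodiesterase (log2 -0.41), Arl4c, a small GTPase (-0.33), and Abcg1, which exports cholesterol (-0.32).

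The other carriers and stores of sterol had ratios below that of Stard4. Of 21 genes for sterol transfer and storage, 20 reached the minimum count (Stard6 had 51 and 47 counts), 10 were at least 1.2-fold higher and 0 lower by column totals, and 1 was higher and 2 lower relative to like length, with median log2 ratios of 0.25 and 0.07. Over all genes 33.7% were higher and 11.4% lower by column totals, and 9.51% were higher and 17.6% lower relative to like length. Soat2, which esterifies cholesterol in hepatocytes, was the higher one (5653 and 7606 counts, log2 0.30 relative to like length). Soat1, its counterpart in macrophages and other cells (1242 and 1194 counts, log2 -0.33), and Scp2, a peroxisomal carrier (458131 and 428754 counts, log2 -0.27), were the lower ones. Stard5, a close relative of Stard4, had 10706 and 14047 counts, log2 0.22 relative to like length.

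**Figure D4:**
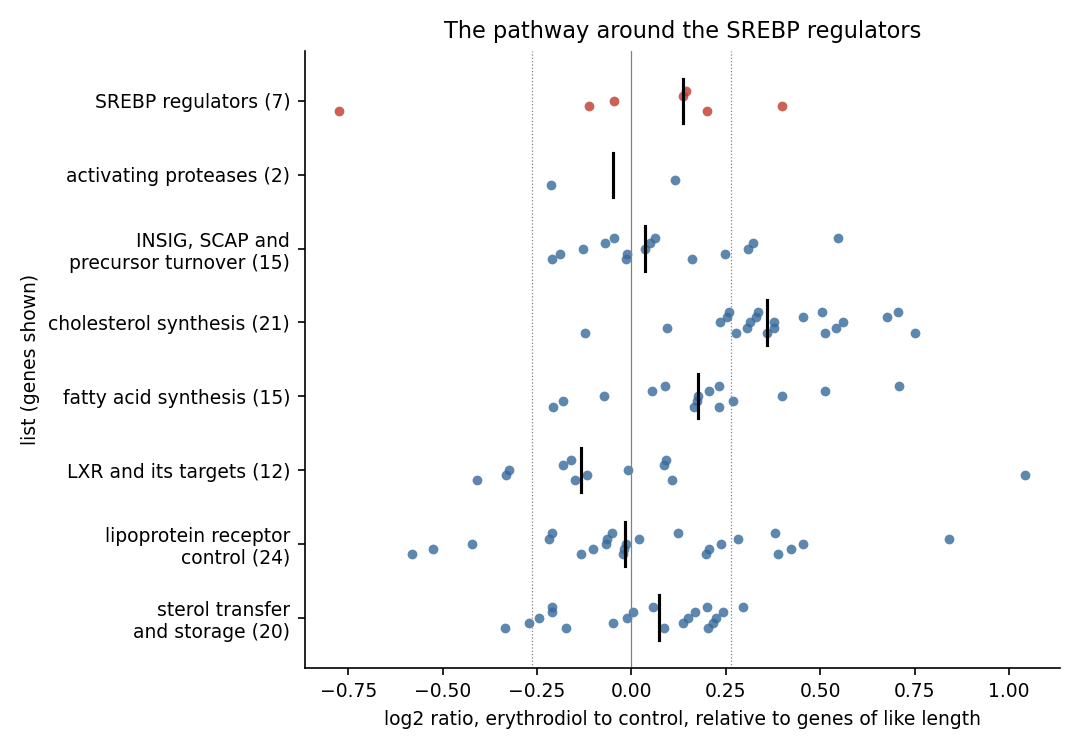
Log2 ratio (erythrodiol over control) relative to the 500 genes nearest in length, for the 7 SREBP regulators (red) and the genes of 7 lists around them (blue), with the number of genes shown beside each name. Black bars are medians, dotted lines mark 1.2-fold, and each point is 1 gene with 1 value per group. The cholesterol synthesis enzymes lie mostly right of the upper line (median 0.36), while Insig2 at -0.77 lies left of every other gene shown.

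In the gene ontology terms that the deposited table carries, 5 of the 7 genes shared cholesterol metabolic process (60 genes in the table), all but Mylip and Stard4. The complex of SREBP, SCAP and INSIG was given to 3 genes of the table, Srebf2, Insig1 and Insig2, and the SREBP signalling pathway to 8, among them Scap, Insig1 and Insig2. The 53 genes of cholesterol metabolic process at the minimum count had a median log2 of 0.25 by column totals and 0.03 relative to like length.

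Several facts of the libraries stand beside these results. Clean reads ran from 34856340 to 55244294 in control libraries and from 47669656 to 48058606 with erythrodiol, and 64.3% to 81.4% and 73.0% to 76.1% of them mapped to genes. A single control library gave between 9.12% and 17.3% of its group's read pairs, so the control sums weigh libraries unequally. If all but 1 library of a group had stood at the level of the other group, the last control library would have needed Insig2 at 4.14 to 6.94 times that level, and the last erythrodiol library Stard4 at 4.84 to 5.03 times, Srebf2 at 3.62 to 3.76 times and Srebf1 at 1.70 to 1.74 times. This is arithmetic on the sums scaled by column totals, where the median gene was itself 1.12-fold higher, and no test. Values per library were not analysed here. Apoe had 9403 counts in the control sum and 8293 with erythrodiol, with no group of mice carrying intact Apoe to set beside it. Ppib and Tbp, the study's reference genes, were at log2 -0.59 and 0.31 by column totals.

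Markers of cell types also differed between the group sums. The 10 hepatocyte markers summed to 116300 CPM in control libraries and 119681 with erythrodiol, of which Alb gave 80551 and 77520. By column totals 5 of the 10 were at least 1.2-fold higher and 0 lower, with a median log2 of 0.25. Relative to like length 2 were higher and 0 lower. Of all genes, 33.7% were that much higher by column totals and 9.51% relative to like length. The 7 Kupffer cell and macrophage markers summed to 472 and 334. By column totals 5 of them were at least 1.2-fold lower, Marco most (log2 -1.07), while Cd68 was at 0.04. Relative to like length 6 of them were that much lower. The 6 bile duct markers summed to 117 and 79.3, of which Spp1 gave 102 and 67.1, and the 8 neutrophil markers to 13.0 and 5.12. Only 3 of the neutrophil markers reached the minimum count, and all 3 were at least 1.2-fold lower on both scales. Among those under the minimum, Ly6g alone was higher with erythrodiol, with 38.98 and 45.45 counts. Of the 5 bile duct markers at the minimum count, 4 were that much lower by column totals and 5 relative to like length. Of all genes, 11.4% were at least 1.2-fold lower by column totals and 17.6% relative to like length. Sinusoidal endothelial (201.4 and 218), stellate cell (584 and 560) and lymphocyte markers (7.71 and 7.44) had medians of log2 0.14, 0.02 and 0.03. These are by column totals, where the median of all genes was 0.16. Relative to like length the same medians were -0.08, -0.25 and 0.05. In bulk liver, fewer cells of a type and less RNA per cell cannot be told apart, and the part of these cells in the difference of Insig2 or of any other gene was not tested.

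The size of each difference, and for 2 genes its sign, depended on the scaling. Stard4 stayed at least 1.2-fold higher and Insig2 at least 1.2-fold lower under all 6 scalings computed. Srebf2 was at least 1.2-fold higher under 5 of them and Scap under 2. Insig1 passed that size under 1 of them, the column totals. Srebf1 and Mylip were above 0 under 2 scalings and below 0 under 4.

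**Figure D5:**
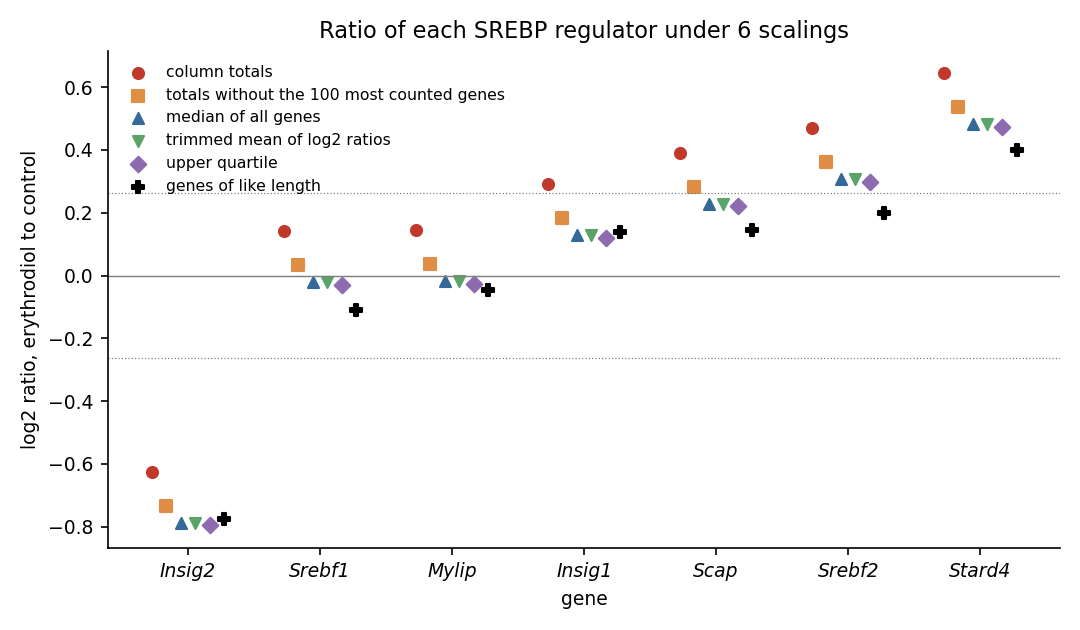
Log2 ratio of erythrodiol to control for each SREBP regulator under 6 scalings of the group sums, 1 marker per scaling, with dotted lines at 1.2-fold. Insig2 lies between -0.80 and -0.62 and Stard4 between 0.40 and 0.64 under every scaling, while Srebf1 and Mylip lie on both sides of 0.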

How the data were processed

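Poly-A RNA of 14 liver pools was sequenced in paired-end mode by the authors, and groups were taken from the sample labels. Which animals entered which pool was not given in the sources used here. The authors filtered reads, mapped them with HISAT, assembled transcripts with StringTie, picked out new ones with a tool of Cufflinks, called variants with GATK, and mapped clean reads to reference and new coding transcripts with Bowtie2 and counted them with RSEM (per the labels and the study's methods, with versions not given in the sources used here). The authors deposited counts of clean reads and of genes detected and mapping rates in percent per library, and 1 expected count per gene and group, not normalized, which is the sum of the group's libraries. The deposited table also holds the authors' log2 ratio, p-value and q-value per gene, named for DEGseq, which were not used.

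The design had allowed for group sums, so no test across genes was made. Ratios of the sums were scaled by column totals, and again relative to the 500 genes nearest in length among the 13291 genes whose sums held at least 100 counts between them. Levels are CPM per kilobase of the deposited length. All 7 genes had whole counts (tolerance 1e-06). Counts of list genes were rounded to whole numbers for intervals, which are at 95%. Intervals of relations between genes use the normal approximation on the log scale. Calls are at 1.2-fold. Some genes of the lists are counted in them but not reported here. Gene positions and promoter windows are those of RefSeq for GRCm38.p6, and transcripts those of GENCODE for GRCm38. The computation was tested on simulated data. Scripts ran under Python 3.11.15 with scipy 1.17.1, numpy 2.4.6 and pandas 2.3.3, and plots under matplotlib 3.10.9.

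The 7 genes and all lists were chosen with earlier results of these data known, and the motifs, ontology terms and relations between genes after values were seen. Genes named are the 7, each list gene at least 1.2-fold from genes of like length or highest or lowest in its list, Mbtps1, Mbtps2, the genes nearest in level, Apoe, Ppib and Tbp. Stard5, Marco, Cd68, Spp1 and Ly6g were named after their values were seen. Alternatives were 5 other scalings, a pseudocount of 1, 200 or 1000 nearest genes, minimums of 10 counts or none, calls at 1.5-fold and 2-fold, and levels without length.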

Additional observations from a re-analysis of the deposited data

Results flagged for a closer look

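Control replicate 3 had the lowest share of clean reads mapped to genes, 64.33%, and the nearest control library had 74.39%. The gap of 10.06 percentage points was 0.588 of the range of the 7 control libraries, above Dixon's 95% critical value for 7 samples. It was 1 of 8 combinations of measure and group examined, and chance gives such a gap in about 1 of 20 groups. The same library gave 9.12% of the control read pairs, the smallest share of any control library, and its part in the sums of Insig2 and the other genes was not tested.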

How the results depend on the processing

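No paired analysis was possible because the gene columns are sums over a group and carry no replicate number, and the results come from no test. No library was left out, for the same reason.

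Against the column totals, which gave log2 ratios of 0.14 for Srebf1, 0.47 for Srebf2, 0.39 for Scap, 0.29 for Insig1, -0.62 for Insig2, 0.14 for Mylip and 0.64 for Stard4, setting the median of all genes to 0 gave -0.021 for Srebf1, 0.31 for Srebf2, 0.23 for Scap, 0.13 for Insig1, -0.79 for Insig2, -0.017 for Mylip and 0.48 for Stard4. Genes of like length gave -0.11 for Srebf1, 0.20 for Srebf2, 0.15 for Scap, 0.14 for Insig1, -0.77 for Insig2, -0.046 for Mylip and 0.40 for Stard4. The upper quartile gave -0.030 for Srebf1, 0.30 for Srebf2, 0.22 for Scap, 0.12 for Insig1, -0.80 for Insig2, -0.026 for Mylip and 0.47 for Stard4. Totals without the 100 most counted genes gave 0.033 for Srebf1, 0.36 for Srebf2, 0.28 for Scap, 0.18 for Insig1, -0.73 for Insig2, 0.037 for Mylip and 0.54 for Stard4, and the trimmed mean of log2 ratios gave -0.022 for Srebf1, 0.31 for Srebf2, 0.23 for Scap, 0.13 for Insig1, -0.79 for Insig2, -0.018 for Mylip and 0.48 for Stard4. These scalings shifted the median of all genes by -0.16, -0.16, -0.17, -0.11 and -0.16, by construction the same shift for every gene except under like length.

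The median log2 ratio of the 7 genes, 0.29 by column totals, was 0.13, 0.14, 0.12, 0.18 and 0.13 under the 5 other scalings in the same order. The number of the 7 at least 1.2-fold higher, 4 by column totals, was 2 with the median of all genes, the upper quartile and the trimmed mean, and 1 with genes of like length. The number lower was 1 under all of them.

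The list medians relative to like length and to the median of all genes were -0.050 and 0.038 for the activating proteases, 0.036 and 0.041 for the turnover genes, 0.36 and 0.35 for cholesterol synthesis, 0.18 and 0.26 for fatty acid synthesis, -0.13 and -0.093 for LXR and its targets, 0.072 and 0.087 for sterol transfer and storage. That of lipoprotein receptor control turned from 0.27 by column totals to -0.016 relative to like length, was 0.10 relative to the median of all genes and 0.20 with no minimum count. The cause of these moves beyond the shift of all genes was not tested.

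By CPM with no length, Srebf1 was 1 and Insig2 3 in the order of the 7 genes with erythrodiol, against 3 and 1 per length. A pseudocount of 1, 200 or 1000 nearest genes and a minimum of 10 counts moved no value of the 7 genes by more than its counting interval. By column totals the counting interval was widest for Mylip, log2 0.05 to 0.24 around 0.14, so counting error is not a small part of that value. The spread between livers was not measured for genes.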

Other observations

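The genes nearest to each of the 7 in level, by the distance of log2 levels over the 2 group values, were Cisd3 and Sdc2 for Srebf1, Plekhg3 and Mtor for Srebf2, Papola and Stat3 for Scap, and Tprkb and Ddb1 for Insig1. For Insig2 they were Tmem258 (94.9 CPM per kilobase in the control sum and 60.6 with erythrodiol) and Ctss (91.9 and 62.1), for Mylip Phf20l1 and Noc4l, and for Stard4 Cyp51 and Gm42102. These pairs share 2 values only, so a small distance is a description of level.

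The level of Stard4 was 0.534 times that of Scap in control libraries and 0.636 times with erythrodiol, 1.19-fold higher (1.15 to 1.24). This pair was chosen after the values were seen.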
